A study of Mus musculus with 7 samples.

Results

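The cytokine genes Il2, Il21, Il10, Il9, Il3, Csf2, Tnf, Lta and Areg lie outside the type 2 cytokine cluster that holds Il4, Il5 and Il13, and their chromatin was measured by ATAC-seq in CD4+ T cells from mice infected with Nippostrongylus brasiliensis. A region was assigned to a gene if it overlapped the gene body of the GENCODE mm10 annotation or the 10 kb on each side of it. This gave 57 of the 113820 regions of the series, between 4 at Il3 and 10 at Il10. Il3 and Csf2, which are neighbours on chromosome 11, shared 1 of these regions, and Tnf and Lta, which are neighbours on chromosome 17, shared 5.

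CD4+ T cells differ in the cytokines that they make, and the accessibility of promoters and distal elements at a cytokine gene is 1 layer of control over which of them a cell can express. IL-21 is the cytokine by which T follicular helper cells support B cells in germinal centers, whereas IL-3, GM-CSF (the product of Csf2), IL-9 and amphiregulin (the product of Areg) act on myeloid cells, mast cells, basophils and epithelium in tissues. IL-2 is a growth factor of T cells, IL-10 restrains inflammation, and TNF and lymphotoxin alpha are inflammatory cytokines of the same family.

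In ATAC-seq a transposase places adapters where chromatin is open, and the density of its insertions is the measure of accessibility. All mice were C57BL/6 mice infected with 500 L3 larvae and examined on day 8, and each library was made from 50000 sorted CD4+ T cells. IL-4+ cells were GFP+ cells of IL-4-4get mice, in which GFP marks cells competent to express Il4, and came from the mediastinal lymph nodes (LN IL-4+, n = 2, called LN cells below) or the lung (lung IL-4+, n = 3). IFNγ+ cells were YFP+ cells of the lung of IFN-gamma GREAT mice, in which YFP reports Ifng (lung IFNγ+, n = 2). The reporter allele and the cell type therefore changed together between lung IL-4+ and lung IFNγ+ cells, and tissue, reporter allele and cell type changed together between lung IFNγ+ and LN cells. Between lung IL-4+ and LN cells, cell type also changed with tissue. From its receptor and RNA experiments, done slightly later after infection, the paper describes IL-4+ cells as mostly T follicular helper cells in lymph nodes and Th2 cells in the lung. It also describes a transitional IL-4+ population found in both tissues. In both comparisons with LN cells, preparation changed as well, because lungs were digested with enzymes and lymph nodes were dissociated mechanically. No reporter-negative cells were analysed here. Libraries are bulk measurements, in which fewer cells with an open region and less opening per cell cannot be told apart. By the study's own description the replicates of a population were mice of a single experiment, so the p-values cover the spread between mice within it. Whether LN and lung libraries came from the same mice was not given in the sources used here.

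Depth within the 113820 regions, rebuilt from the values as a lower bound on the insertions, was between 14005923 and 91681969 per library. A region at these genes had between 5 and 5840 rebuilt insertions in a library with a median of 86. The libraries fell into 2 classes by the spread of their log2 rebuilt counts over all regions, narrow in LN replicate 1 and replicates 2 and 3 of lung IL-4+ cells and wide in the other 4. The narrow libraries were also the shallowest, with between 14005923 and 23564412 rebuilt insertions, compared with between 39068158 and 91681969 in the wide class. A comparison within a class is therefore also a split by depth. For lung IL-4+ and LN cells it sets 2 libraries against 1 in the narrow class and 1 against 1 in the wide class. These are the same libraries that gave the calls. All 4 T cell markers examined had regions at their starts, with values between 3.93 and 4.80 on the log2 scale of insertions per kilobase, and 0 of 3 B cell markers and 0 of 3 mast cell and basophil markers had one. The sort had removed CD8+, CD11b+, CD11c+ and NK1.1+ cells. A region at the start was found for 1 of 2 CD8 T cell markers (between 1.56 and 2.87), 1 of 2 NK cell markers (between 1.23 and 2.94), 2 of 3 myeloid markers (between -0.16 and 2.96) and 1 of 2 epithelial markers (between 3.13 and 3.64). The values of both myeloid markers (Itgam and Itgax) and of the NK cell marker (Klrb1c, 2.94 and 2.46 compared with at most 2.29 elsewhere) were highest in the 2 lung IFNγ+ libraries, and the part of this in the values below was not tested.

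The 6 windows below are the centers of the 5 regions called between populations and of a region beyond Il21 that was not called. The latter had the second lowest fold change of lung IL-4+ over LN cells among the 57 regions. The windows are given because these elements lie outside exons and are identified by position alone. Each is 300 bases of the plus strand of GRCm38 from RefSeq, in lower case, with capitals at matches on either strand. The motifs searched were TGGAAA for NFAT factors, TGANTCA for AP-1, TGTGGT for RUNX factors, AGATAA for GATA factors, GGTGTG for T-box factors, TCAAAG for TCF factors, GGAAGT for ETS factors and TGACGT for CREB, and no match overlapped another in these windows.
Il3, 4.4 kb upstream, chr11:54271490-54271789: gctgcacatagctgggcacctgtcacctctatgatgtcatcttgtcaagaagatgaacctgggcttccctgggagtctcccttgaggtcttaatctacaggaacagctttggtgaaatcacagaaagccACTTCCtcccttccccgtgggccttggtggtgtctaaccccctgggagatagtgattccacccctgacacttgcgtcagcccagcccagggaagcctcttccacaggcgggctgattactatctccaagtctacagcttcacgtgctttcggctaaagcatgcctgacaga
Csf2, 9.5 kb downstream, chr11:54239994-54240293: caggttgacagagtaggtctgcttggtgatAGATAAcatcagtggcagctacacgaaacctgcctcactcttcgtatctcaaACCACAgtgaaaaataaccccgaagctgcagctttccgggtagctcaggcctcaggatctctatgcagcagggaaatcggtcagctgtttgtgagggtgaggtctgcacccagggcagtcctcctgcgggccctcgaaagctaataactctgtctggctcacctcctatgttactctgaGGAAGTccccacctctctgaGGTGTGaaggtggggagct
Csf2, 12.5 kb downstream, chr11:54237003-54237302: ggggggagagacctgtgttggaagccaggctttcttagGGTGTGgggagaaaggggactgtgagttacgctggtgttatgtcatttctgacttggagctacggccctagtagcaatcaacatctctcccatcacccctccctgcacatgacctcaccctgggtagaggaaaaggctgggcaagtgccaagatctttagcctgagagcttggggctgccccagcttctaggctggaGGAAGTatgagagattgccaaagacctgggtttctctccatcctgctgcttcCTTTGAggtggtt
Il10, 6.5 kb downstream, chr1:131026189-131026488: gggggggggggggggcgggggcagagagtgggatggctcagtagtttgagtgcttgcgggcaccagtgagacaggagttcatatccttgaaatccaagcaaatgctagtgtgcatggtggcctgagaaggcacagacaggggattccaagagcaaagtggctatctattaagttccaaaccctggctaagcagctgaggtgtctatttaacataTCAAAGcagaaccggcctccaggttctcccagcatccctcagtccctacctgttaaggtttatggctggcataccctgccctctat
Il10, 7.1 kb upstream, chr1:131012576-131012875: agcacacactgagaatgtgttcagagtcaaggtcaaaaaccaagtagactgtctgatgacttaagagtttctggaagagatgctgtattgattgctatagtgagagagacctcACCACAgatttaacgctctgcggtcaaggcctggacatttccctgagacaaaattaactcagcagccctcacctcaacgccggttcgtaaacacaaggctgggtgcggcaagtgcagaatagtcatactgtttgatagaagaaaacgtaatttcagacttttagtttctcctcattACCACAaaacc
Il21, 13.4 kb downstream, chr3:37219129-37219428: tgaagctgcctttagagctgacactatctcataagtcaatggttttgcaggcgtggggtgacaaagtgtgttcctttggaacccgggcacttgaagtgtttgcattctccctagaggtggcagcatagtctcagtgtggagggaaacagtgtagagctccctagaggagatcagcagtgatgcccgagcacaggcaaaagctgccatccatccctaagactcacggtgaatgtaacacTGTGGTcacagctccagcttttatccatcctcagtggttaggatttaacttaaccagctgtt
The window downstream of Csf2 at 9.5 kb held 1 match each of GATA, RUNX, ETS and T-box, and the window upstream of Il10 held 2 RUNX matches. Of all 113820 regions, 24.3% held NFAT in the central 300 bases, 13.0% AP-1, 27.5% RUNX, 15.2% GATA, 21.9% T-box, 21.6% TCF, 24.0% ETS and 4.6% CREB. Of the 57 cytokine regions, 29.8% held NFAT, 19.3% AP-1, 36.8% RUNX, 26.3% GATA, 26.3% T-box, 26.3% TCF, 36.8% ETS and 1.8% CREB. These shares are descriptions of letters in a window and carry no test.

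To ask whether these genes were differently open in the lung and the lymph nodes, single regions were compared between populations with limma. A call needed 3-fold or more and an adjusted p under 0.05. Lung IL-4+ cells exceeded LN cells at 4 of the 57 regions (7.02%), compared with 1.05% of all regions, and were lower at 0 of 57, compared with 0.695% of all. Lung IFNγ+ cells exceeded LN cells at 3 of 57 (5.26%), compared with 2.17% of all regions, and were lower at 0, compared with 0.862%. Between lung IL-4+ and lung IFNγ+ cells limma called 0 of 57 regions in either direction, compared with 0.108% of all regions higher in IL-4+ cells and 0.387% lower. At an unadjusted p below 0.05 with the 3-fold minimum, that last comparison gave 0 higher and 2 lower, compared with 1.44% and 1.93% of all regions, and voom on rebuilt counts also called 0. Without the fold minimum it gave 6 higher and 6 lower (10.5% each), compared with 6.36% and 8.45% of all. By the unadjusted p with the fold minimum, 0 regions were lower in lung IL-4+ than in LN cells, compared with 1.88% of all, and 0 in lung IFNγ+ than in LN cells, compared with 2.92%. Without the minimum, 2 and 1 were lower (3.51% and 1.75%), compared with 7.38% and 7.81% of all.

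All 5 called regions lay between genes, at Il3, Csf2 and Il10, and none overlapped a start or an exon. Without a variance trend, the 4 regions of the first comparison had adjusted p-values of 0.0678 or 0.0684 and were not called. On rebuilt counts, voom gave the region 12.5 kb downstream of Csf2 an adjusted p of 0.0812, that 7.1 kb upstream of Il10 in lung IFNγ+ cells 0.132, and that 6.5 kb downstream of Il10 a log2 fold change of 1.49 in lung IL-4+ cells, under the fold minimum. The median log2 fold change over the 57 regions was 0.32 for lung IL-4+ over LN cells, where it was -0.03 over all regions, and 0.19 for lung IFNγ+ over LN cells, where it was -0.03 over all. The plot of fold changes of every region shows, for lung IL-4+ over LN cells, 36 of the 57 regions above 0 (63.2%), compared with 47.7% of all regions. These were 9 of 9 regions of Areg, 4 of 5 of Csf2, 3 of 4 of Il3, 8 of 10 of Il10, 5 of 6 of Il9, 5 of 9 of Tnf, 2 of 6 of Lta, 2 of 8 of Il2 and 0 of 6 of Il21, with shared regions counted at both genes.

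**Figure D1:**
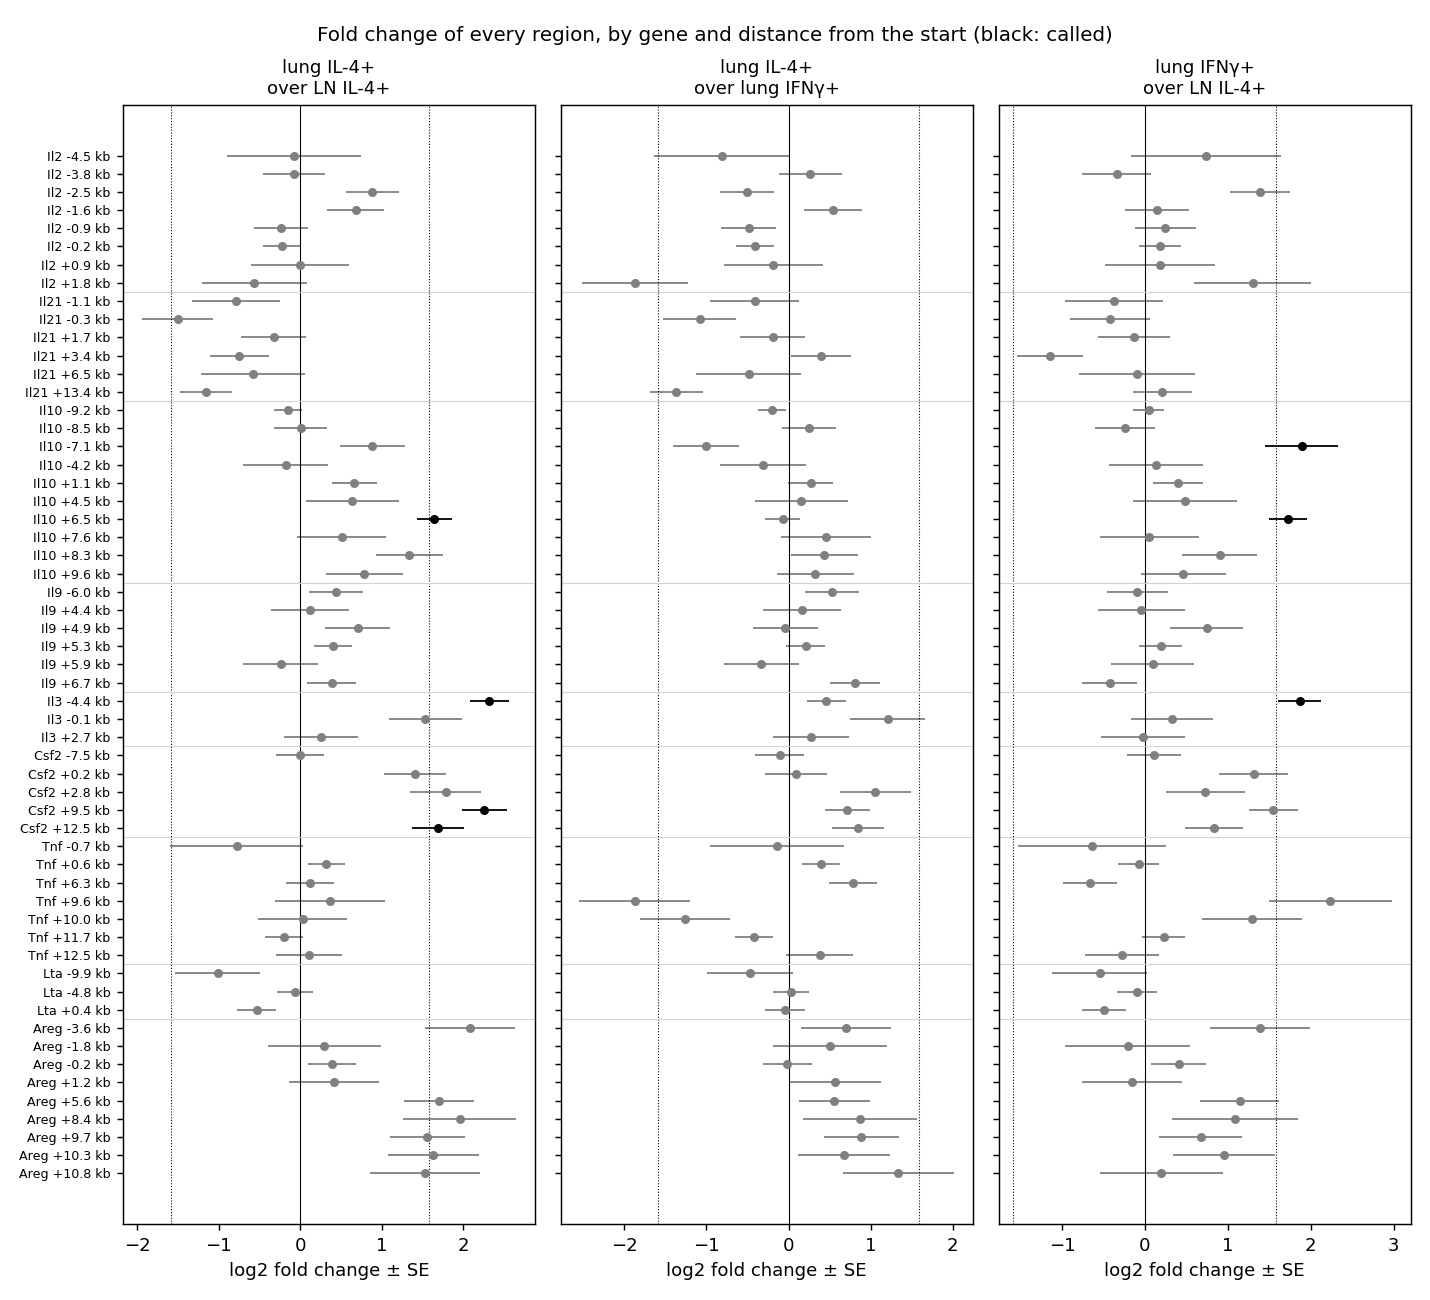
Log2 fold change with its standard error (x axis) of each of the 57 regions, listed by the nearest of the 9 cytokine genes and the signed distance in kb from its transcription start, in the 3 comparisons. Black points passed the test and the 3-fold minimum marked by dotted lines: 4 regions for lung IL-4+ over LN cells, 0 between the lung populations and 3 for lung IFNγ+ over LN cells.

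Accessibility was then summed over all regions of a gene, as normalized insertions (between 980681 and 980715 per library over all regions), and the sums of 17021 protein-coding genes were compared with limma with a call at an adjusted p under 0.05 and no fold minimum. Csf2 and Il3 were higher in lung IL-4+ than in LN cells and Il21 was lower, which are 2 of 9 genes higher, compared with 0.664% of all genes, and 1 of 9 lower, compared with 0.417%. For lung IFNγ+ over LN cells limma called 0 of 9, compared with 1.34% of all genes higher and 0.811% lower, and at an unadjusted p below 0.05 there were 3 higher and 1 lower. Between the lung populations limma called 0 of 9, compared with 0% of all genes higher in IL-4+ cells and 0.0529% lower, and at an unadjusted p below 0.05 there was 1 in each direction. The share of all genes at the unadjusted threshold is not given here, so the unadjusted counts have no background to be read against. Per kilobase of region, the order of the genes differed between LN and lung IL-4+ cells. In LN cells, Lta (16.4 normalized insertions per kb), Tnf (15.0) and Il9 (12.2) were the most open, Il21 (7.51) and Il10 (7.26) followed, and Il3 (3.92) and Csf2 (3.04) were the least open. In lung IL-4+ cells, Il3 (9.06) and Csf2 (8.24) were above Il2 (6.45), and Il21 was the least open (4.17). In lung IFNγ+ cells, Il2 (8.155) was above Il3 (6.91) and Csf2 (5.75), and Il21 was again the least open (5.42).

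**Figure D2:**
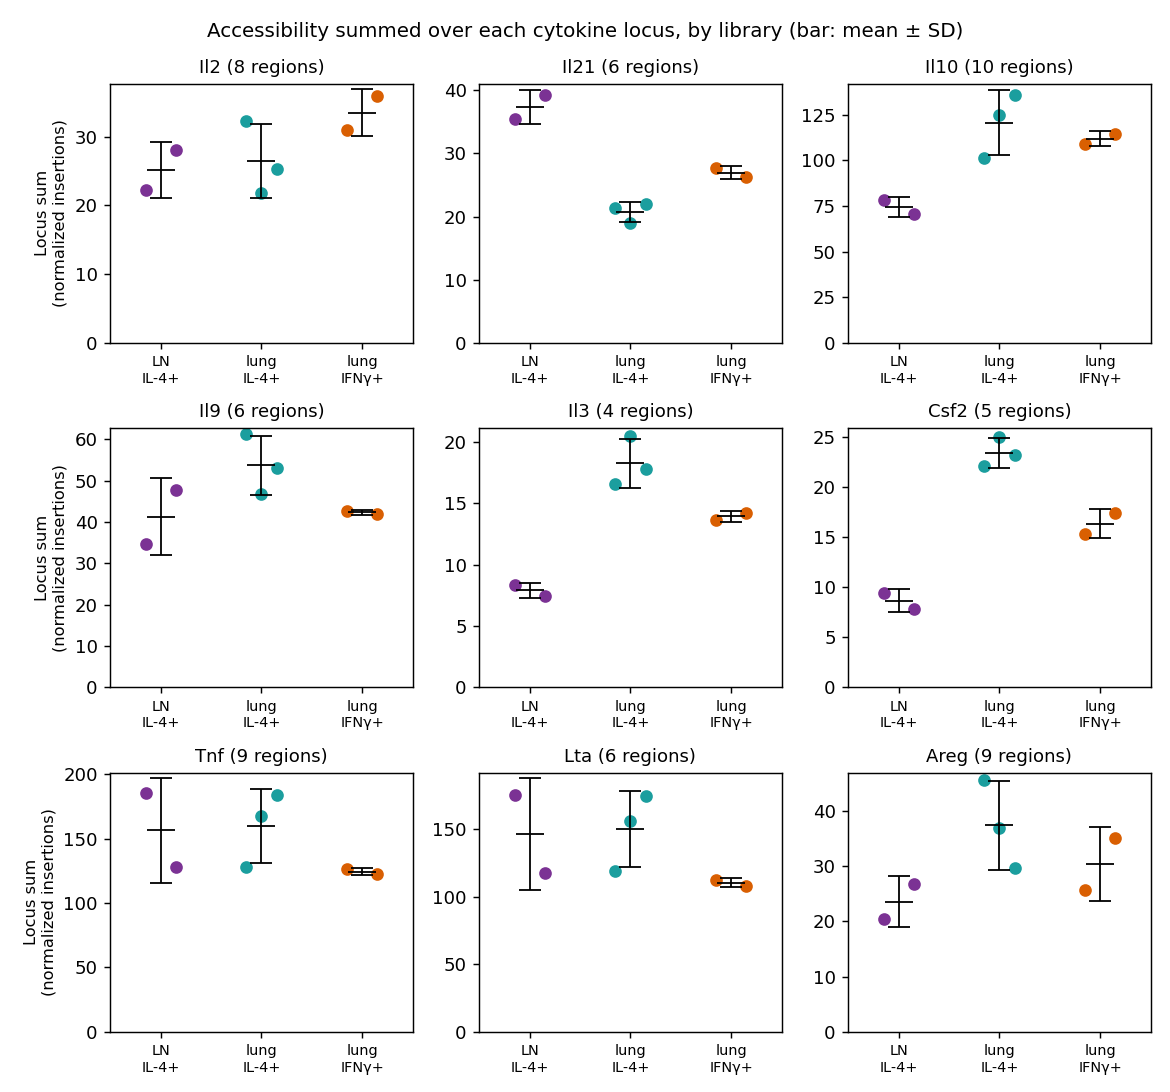
Sum of normalized insertions over the regions of each cytokine gene (y axis) in each of the 7 libraries, with the mean and SD of each population. The 3 lung IL-4+ libraries sit above both LN libraries at Csf2 and Il3, and below them at Il21. At Tnf and Lta the LN and lung IL-4+ libraries overlap.

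Csf2 encodes GM-CSF, a growth and activating factor of myeloid cells. Its locus sum was 9.46 and 7.84 in the LN libraries, 22.1, 25.02 and 23.2 in the lung IL-4+ libraries and 15.3 and 17.4 in the lung IFNγ+ libraries. The 3 populations did not overlap. The sum was 2.72-fold higher in lung IL-4+ than in LN cells (log2 fold change 1.44, SE 0.18, adjusted p = 0.0195). The lung IFNγ+ level lay between them, 0.92 on the log2 scale over LN cells (adjusted p = 0.0624) and below lung IL-4+ cells by 1.43-fold (adjusted p = 0.301). Within the narrow class of libraries lung exceeded LN cells by 1.35 on the log2 scale, and within the wide class by 1.49. The adjusted p was 0.169 without replicate 2 of lung IL-4+ cells, 0.099 without replicate 3, 0.0894 and 0.0922 without lung IFNγ+ replicates 1 and 2, and 0.0911 without the lung IFNγ+ population, and the log2 fold change without any 1 library was between 1.31 and 1.58.

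Along the Csf2 locus, 4 of 5 regions had a higher mean in lung IL-4+ than in LN cells, and the 2 that were called lay downstream of the gene. The region 9.5 kb downstream of the start (chr11:54239851-54240438) had a density of 2.47 and 2.69 normalized insertions per kb in LN libraries, 12.2, 13.4 and 11.6 in lung IL-4+ libraries and 6.68 and 8.52 in lung IFNγ+ libraries. Every lung library was above both LN libraries, and the lung IL-4+ libraries were above both lung IFNγ+ libraries. It was 4.79-fold higher in lung IL-4+ than in LN cells (log2 fold change 2.26, SE 0.27, adjusted p = 0.00425). In lung IFNγ+ cells it was 2.93-fold higher than in LN cells (adjusted p = 0.0193), which missed the 3-fold minimum. The region 12.5 kb downstream (chr11:54236917-54237390) had densities of 2.74 and 2.40 in LN, 7.89, 9.49 and 7.51 in lung IL-4+ and 4.12 and 5.09 in lung IFNγ+ libraries. It was 3.22-fold higher in lung IL-4+ than in LN cells (log2 fold change 1.69, SE 0.32, adjusted p = 0.0221), again with no overlap. Its adjusted p was 0.112 and 0.0534 without lung IL-4+ replicates 2 and 3, and 0.0638 and 0.0693 without lung IFNγ+ replicates 1 and 2.

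At the Csf2 start itself (chr11:54249089-54249826, over its first exon and an intron of the antisense gene Gm12223), the log2 values were 1.72 and 1.10 in LN, 2.88, 2.30 and 3.26 in lung IL-4+ and 2.58 and 2.87 in lung IFNγ+ libraries. The LN libraries were below all lung libraries, but the log2 fold change of 1.41 (SE 0.38) did not pass (adjusted p = 0.0814). The region that Csf2 shares with Il3, 7.5 kb upstream of Csf2, had log2 values between 2.51 and 3.11 in all 7 libraries and a log2 fold change of -0.001 between lung IL-4+ and LN cells (SE 0.30). The populations overlapped there. All 5 regions of the locus were accessible in lung IL-4+ cells by a mean density of at least 5, 3 of 5 in lung IFNγ+ cells and 1 of 5 in LN cells.

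**Figure D3:**
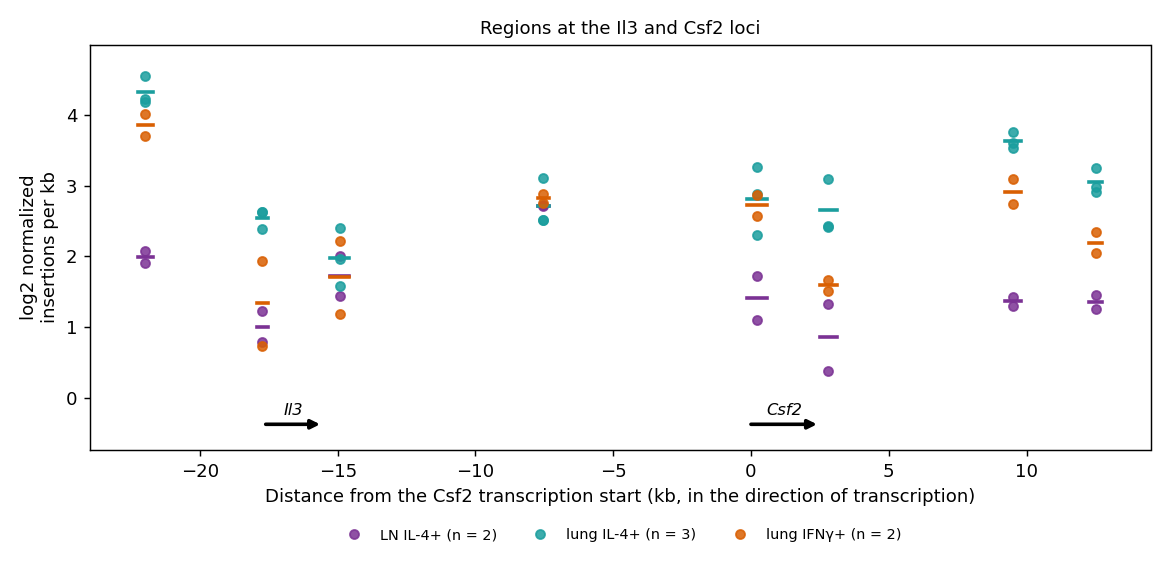
Log2 normalized insertions per kb (y axis) of the 8 regions of Il3 and Csf2 against their distance in kb from the Csf2 transcription start (x axis). Points are libraries, short lines are population means drawn over the width of the region, and arrows are the 2 genes. The LN points fall below all lung points 4.4 kb upstream of Il3 and at the Csf2 start and the 3 regions beyond it, and mix with them at the shared region between the genes.

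Il3 encodes IL-3, a growth factor of basophils and mast cells, and lies next to Csf2. Its locus sum was 8.34 and 7.44 in LN, 16.5, 20.4 and 17.8 in lung IL-4+ and 13.6 and 14.2 in lung IFNγ+ libraries. The populations did not overlap, in the same order as at Csf2. The sum was 2.31-fold higher in lung IL-4+ than in LN cells (log2 fold change 1.21, SE 0.19, adjusted p = 0.0348). This call was lost with the 2 populations alone (adjusted p = 0.136) and without any 1 library other than lung IL-4+ replicate 1, with adjusted p between 0.0514 (LN replicate 1 left out) and 0.197 (lung IL-4+ replicate 2 left out) and log2 fold changes between 1.12 and 1.29. Lung IFNγ+ over LN cells gave 0.82 on the log2 scale (adjusted p = 0.101).

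An element lay 4.4 kb upstream of the Il3 start (chr11:54271382-54271898). Its density was 3.76 and 4.22 in LN libraries, 18.7, 23.4 and 18.1 in lung IL-4+ libraries and 13.0 and 16.1 in lung IFNγ+ libraries. No lung library came near the LN libraries. It was 5.0-fold higher in lung IL-4+ than in LN cells (log2 fold change 2.32, SE 0.24, adjusted p = 0.00274), the highest fold change of the 57 regions, and 3.64-fold higher in lung IFNγ+ than in LN cells (log2 fold change 1.86, SE 0.26, adjusted p = 0.0048). Within the narrow class lung IL-4+ exceeded LN cells there by 2.45, and within the wide class by 2.15. The call in lung IFNγ+ cells had an adjusted p of 0.0747 and 0.102 without lung IFNγ+ replicates 1 and 2. At the Il3 start (chr11:54267193-54267593), the log2 values were 1.23 and 0.79 in LN, 2.63, 2.38 and 2.62 in lung IL-4+ and 0.74 and 1.94 in lung IFNγ+ libraries. The lung IL-4+ libraries were above all others, although neither the difference from LN cells (1.54, SE 0.45, adjusted p = 0.109) nor that from lung IFNγ+ cells (1.21, SE 0.45, adjusted p = 0.271) passed.

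Il10 encodes IL-10, which limits inflammatory responses. Its locus sum was 78.2 and 70.6 in LN, 101.0, 124.9 and 136.0 in lung IL-4+ and 108.9 and 114.6 in lung IFNγ+ libraries. Both lung populations lay above the LN libraries and overlapped each other. The log2 fold changes over LN cells were 0.69 in lung IL-4+ cells (SE 0.15, adjusted p = 0.0845) and 0.59 in lung IFNγ+ cells (SE 0.16, adjusted p = 0.121), which did not pass. The first was called without lung IL-4+ replicate 1 (0.81, adjusted p = 0.0443).

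Single elements at Il10 did pass. The region 6.5 kb downstream of the start, beyond the end of the gene (chr1:131025655-131027024), had densities of 5.78 and 7.77 in LN libraries, 20.9, 21.9 and 20.3 in lung IL-4+ libraries and 22.3 and 21.9 in lung IFNγ+ libraries. The 5 lung libraries were nearly equal and all far above the LN libraries. It was 3.13-fold higher in lung IL-4+ than in LN cells (log2 fold change 1.65, SE 0.21, adjusted p = 0.00502) and 3.30-fold higher in lung IFNγ+ than in LN cells (1.72, SE 0.23, adjusted p = 0.00419). Between the lung populations the log2 difference was -0.07 (SE 0.21, adjusted p = 0.882). Without LN replicate 1 the log2 fold changes were 1.43 and 1.51, under the 3-fold minimum, with adjusted p of 0.0144 and 0.00959, and the adjusted p for lung IFNγ+ cells was 0.094 and 0.0752 without lung IFNγ+ replicates 1 and 2.

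The region 7.1 kb upstream of Il10 (chr1:131012519-131012934) had densities of 1.70 and 3.25 in LN, 4.29, 5.43 and 3.53 in lung IL-4+ and 7.25 and 10.4 in lung IFNγ+ libraries. The lung IFNγ+ libraries were the highest and did not overlap the others. It was 3.70-fold higher in lung IFNγ+ than in LN cells (log2 fold change 1.89, SE 0.44, adjusted p = 0.0417), while lung IL-4+ cells differed neither from LN cells (0.89, adjusted p = 0.314) nor from lung IFNγ+ cells (-1.001, adjusted p = 0.299) past the threshold. The call was lost without replicate 1 of LN cells (1.42, adjusted p = 0.149), replicate 2 (0.0733) or 3 (0.0511) of lung IL-4+ cells or replicate 1 (0.251) or 2 (0.425) of lung IFNγ+ cells. The most open region of the locus, 9.2 kb upstream, had densities between 26.5 and 33.5 in all 7 libraries, with the populations overlapping. The region over the Il10 start had log2 values of 3.17 and 2.81 in LN, 3.24, 3.77 and 3.95 in lung IL-4+ and 3.32 and 3.45 in lung IFNγ+ libraries (lung IL-4+ over LN 0.67, SE 0.28, adjusted p = 0.261).

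Il21 encodes IL-21, the T follicular helper cytokine. Its locus sum was 35.5 and 39.2 in LN, 21.3, 19.0 and 21.9 in lung IL-4+ and 27.7 and 26.3 in lung IFNγ+ libraries. The populations did not overlap, and the order was the reverse of that at Csf2 and Il3. The sum was 1.80-fold lower in lung IL-4+ than in LN cells (log2 fold change -0.85, SE 0.15, adjusted p = 0.0477). The differences of lung IFNγ+ cells from LN cells (-0.47, adjusted p = 0.222) and of lung IL-4+ from lung IFNγ+ cells (-0.38, adjusted p = 0.321) did not pass. Within the narrow class the lung minus LN difference was -0.80, and within the wide class -0.88. The call was lost with the 2 populations alone (adjusted p = 0.185) and without any 1 of the 7 libraries, with adjusted p between 0.0626 (LN replicate 1 left out) and 0.238 (lung IL-4+ replicate 2 left out) and log2 fold changes between -0.92 and -0.78, and also on median-centred (-0.76, adjusted p = 0.0654) and quantile-normalized values (-0.715, adjusted p = 0.0781). With 25 kb on each side the log2 fold change was -0.39 (adjusted p = 0.249).

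No single region of Il21 was called, although all 6 had a lower mean in lung IL-4+ than in LN cells, with log2 fold changes between -1.50 and -0.33. The region over the start (chr3:37232565-37233216) had log2 values of 3.62 and 4.41 in LN, 3.40, 1.74 and 2.39 in lung IL-4+ and 3.79 and 3.40 in lung IFNγ+ libraries. The lung IL-4+ libraries were below the LN libraries, with lung IL-4+ replicate 1 close to the lung IFNγ+ libraries (log2 fold change -1.50, SE 0.44, adjusted p = 0.108). Without that replicate the region was called (-1.95, adjusted p = 0.0259). The region 13.4 kb downstream (chr3:37219063-37219496) had log2 values of 3.38 and 3.76 in LN, 2.99, 2.04 and 2.21 in lung IL-4+ and 3.63 and 3.92 in lung IFNγ+ libraries. The lung IL-4+ libraries were the lowest and did not overlap either of the other populations (-1.16 from LN cells, SE 0.32, adjusted p = 0.0937, and -1.37 from lung IFNγ+ cells, SE 0.32, adjusted p = 0.0993). The intronic region 3.4 kb downstream had the lowest log2 fold change of lung IFNγ+ over LN cells at the 9 genes (-1.14, SE 0.40, adjusted p = 0.154), with log2 values of 2.86 and 2.69 in LN and 1.74 and 1.53 in lung IFNγ+ libraries.

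Areg encodes amphiregulin, a ligand of the epidermal growth factor receptor involved in tissue repair. Its locus sum was 20.4 and 26.8 in LN, 45.6, 36.9 and 29.6 in lung IL-4+ and 25.6 and 35.1 in lung IFNγ+ libraries. The lung IL-4+ libraries were above the LN libraries, and the lung IFNγ+ libraries overlapped both. The log2 fold change of lung IL-4+ over LN cells was 0.66 (SE 0.24, adjusted p = 0.271). All 9 regions had a higher mean in lung IL-4+ than in LN cells, with log2 fold changes between 0.30 and 2.08, and none was called. The region 3.6 kb upstream had log2 values of -0.02 and 1.07 in LN, 3.16, 2.88 and 1.78 in lung IL-4+ and 1.42 and 2.40 in lung IFNγ+ libraries (lung IL-4+ over LN 2.08, SE 0.55, adjusted p = 0.076). The region over the start, the most open of the locus, had densities of 15.2 and 29.7 in LN, 36.7, 25.8 and 22.8 in lung IL-4+ and 24.8 and 32.0 in lung IFNγ+ libraries, and the populations overlapped. The other regions of Areg were sparse, and 10.8 kb downstream, where the log2 fold change of lung IL-4+ over lung IFNγ+ was 1.34 (SE 0.68, adjusted p = 0.378), the density was at most 3.62 in any library.

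**Figure D4:**
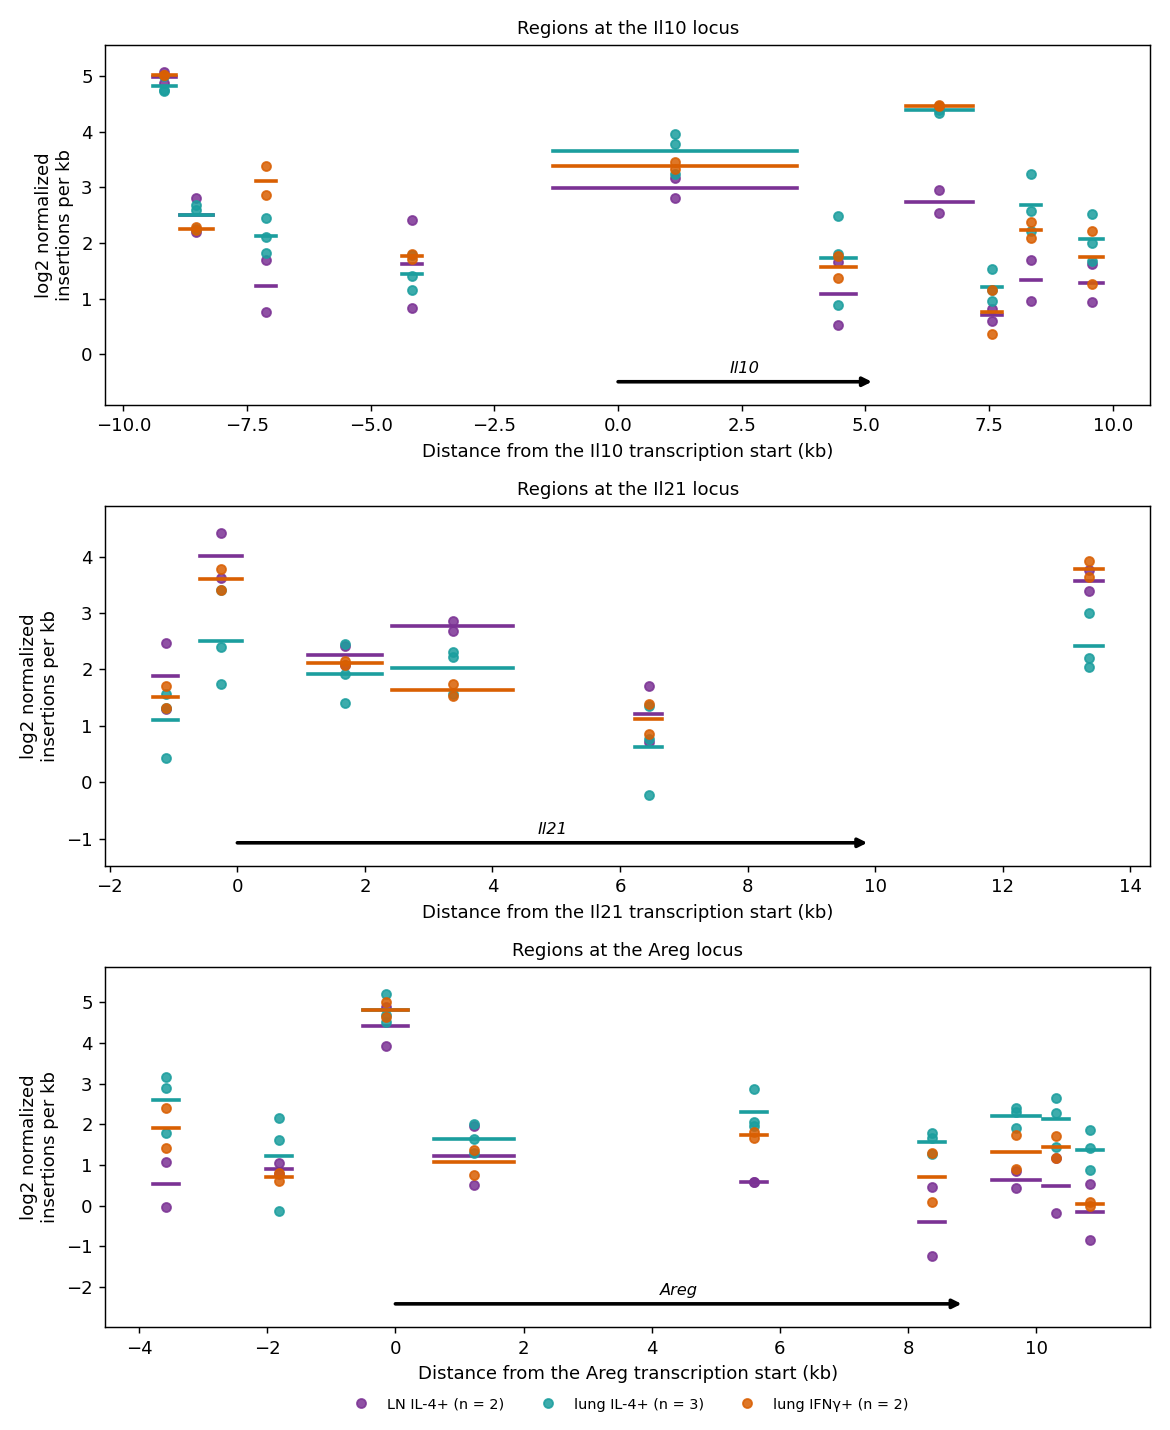
Log2 normalized insertions per kb (y axes) of the regions of Il10, Il21 and Areg against their distance in kb from the transcription start in the direction of transcription (x axes). Points are libraries, lines are population means drawn over the width of the region, and arrows are genes. At Il10 the 5 lung points sit together above the LN points 6.5 kb downstream, at Il21 the lung IL-4+ means are the lowest at the start and 13.4 kb downstream, and at Areg the lung IL-4+ means exceed the LN means at all 9 regions.

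Il9 encodes IL-9, a cytokine of type 2 responses that acts on mast cells. No region lay at its start, and the nearest was 4.4 kb downstream, beyond the gene. Its most open region, 5.3 kb downstream (chr13:56476667-56477157), was the most open of the 57, with densities of 33.1 and 57.7 in LN, 70.5, 49.2 and 55.6 in lung IL-4+ and 49.9 and 49.7 in lung IFNγ+ libraries. The populations overlapped there. The locus sum was 34.7 and 47.8 in LN, 61.2, 46.8 and 53.0 in lung IL-4+ and 42.7 and 41.9 in lung IFNγ+ libraries. LN and lung IL-4+ libraries overlapped (log2 fold change 0.39, SE 0.18, adjusted p = 0.394), whereas the lung IL-4+ libraries were above the lung IFNγ+ libraries (0.34, SE 0.18, adjusted p = 0.366) without passing the test.

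Il2 encodes the T cell growth factor IL-2. Its locus sum was 22.2 and 28.0 in LN, 32.3, 21.8 and 25.3 in lung IL-4+ and 31.0 and 35.9 in lung IFNγ+ libraries, and lung IL-4+ libraries overlapped both other populations. The log2 fold change of lung IL-4+ over LN cells was 0.06 (SE 0.21, adjusted p = 0.931), and its sign turned without replicate 1 of either population. At the region over the start, log2 values were between 3.39 and 4.12 in all 7 libraries. In the intronic region 1.8 kb downstream, the log2 values were 0.04 and 2.40 in LN, 0.77, 0.43 and 0.75 in lung IL-4+ and 2.45 and 2.58 in lung IFNγ+ libraries. Both lung IFNγ+ libraries were above the lung IL-4+ libraries (-1.87 for lung IL-4+ over lung IFNγ+, SE 0.64, adjusted p = 0.238), and the 2 LN libraries differed by more than this from each other.

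Tnf and Lta encode TNF and lymphotoxin alpha, inflammatory cytokines whose genes share 5 of their 9 and 6 regions, so that their sums are not separate measurements. The Tnf sum was 185.2 and 127.6 in LN, 127.9, 167.9 and 183.7 in lung IL-4+ and 126.2 and 122.3 in lung IFNγ+ libraries. The Lta sum was 175.6 and 117.3 in LN, 119.2, 156.0 and 174.4 in lung IL-4+ and 112.7 and 108.2 in lung IFNγ+ libraries. LN and lung IL-4+ libraries overlapped at both genes, with log2 fold changes of 0.04 at Tnf (SE 0.20, adjusted p = 0.957) and 0.04 at Lta (SE 0.21, adjusted p = 0.955), and in both populations the libraries of the narrow class had the higher sums. Lung IFNγ+ libraries were below the others at both genes (lung IL-4+ over lung IFNγ+ 0.35, adjusted p = 0.377, at Tnf and 0.42, adjusted p = 0.352, at Lta). Both lung IFNγ+ libraries were of the wide class. Within that class, 1 lung IL-4+ library exceeded the mean of the 2 lung IFNγ+ libraries by 0.04 at Tnf and 0.11 at Lta. The part of the class in the difference was not tested. The region over the Tnf start had log2 values between 4.06 and 4.80 and that over the Lta start between 3.86 and 4.88, without separation of the populations beyond their spread. A sparse region 9.6 kb downstream of Tnf had log2 values of 0.01 and -0.84 in LN, -0.50, 0.21 and 0.16 in lung IL-4+ and 1.69 and 1.96 in lung IFNγ+ libraries. The lung IFNγ+ libraries were above all others, but on 5 to 98 rebuilt insertions per library neither the difference from LN cells (2.24, SE 0.74, adjusted p = 0.131) nor that from lung IL-4+ cells (-1.87, SE 0.68, adjusted p = 0.255) passed. With the spread class as a covariate the first was called (2.61, adjusted p = 0.0411). The region over Ltb, 6.3 kb downstream of Tnf, had a log2 difference of -0.66 between lung IFNγ+ and LN cells (SE 0.32, adjusted p = 0.304).

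By the study's minimum of 5 normalized insertions per kb, 22 of the 57 regions (38.6%) were accessible in LN cells, 29 (50.9%) in lung IL-4+ cells and 25 (43.9%) in lung IFNγ+ cells. Over all regions the shares were 43.7%, 43.6% and 42.9%. Of the cytokine regions, 35 (61.4%) were accessible in any population and 18 (31.6%) in all 3, close to the 58.2% and 30.8% of all regions.

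Receptors of these cytokines were examined as a list. Of 15 receptor genes, 14 had a region, and 1 was called higher and 0 lower in lung IL-4+ than in LN cells. This was Il2ra, the alpha chain of the IL-2 receptor, with sums of 150.2 and 137.8 in LN and 260.8, 307.5 and 342.9 in lung IL-4+ libraries (log2 fold change 1.07, SE 0.14, adjusted p = 0.0208). The median log2 fold change of the 14 was 0.16, where it was -0.09 over all genes, and limma called 0 of 14 in the other comparisons, with 3 higher and 1 lower at an unadjusted p below 0.05 for lung IL-4+ over lung IFNγ+ and 2 higher and 1 lower for lung IFNγ+ over LN cells. Of 12 genes that flank the cytokines, 11 had a region and 0 were called by limma in any comparison, with 3 higher and 1 lower at an unadjusted p below 0.05 for lung IL-4+ over LN cells. Of these 11, 4 shared regions with the cytokines and are not separate measurements, namely Adad1, whose 8 regions were the 8 of Il2, and Ltb (8 of its 10), Lst1 (5 of 10) and Nfkbil1 (2 of 11), which shared them with Tnf and Lta. For the receptor and flanking genes too, the share of all genes at an unadjusted p below 0.05 is not given here. Of 8 other T cell cytokines, Il5 was called higher in lung IL-4+ than in LN cells (1.14, SE 0.19, adjusted p = 0.0418), and in lung IFNγ+ over LN cells Ifng was higher (2.31, SE 0.29, adjusted p = 0.0141) and Il4 lower (-1.37, SE 0.23, adjusted p = 0.0266). On the same scale, the change of Csf2 in lung IL-4+ cells was 1.44 and that of Il3 was 1.21.

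Among protein-coding genes on other chromosomes, the pattern of locus sums over the 7 libraries most like that of both Il3 and Csf2 was that of Selplg, with a root mean square difference of 0.11 from Il3 and 0.16 from Csf2 on the log2 scale after centring, and the second were Hc and Plac8. For Il21 the nearest were Ptpn14 (0.08) and Pdzd2 (0.08), for Il10 Fam19a3 (0.08) and Mrpl33 (0.08), and for Areg 4931406B18Rik (0.12) and Gm10273 (0.13). For Il2 they were Pramef8 and Kif2a, for Il9 Itgav and Mgat5, for Tnf Lias and Klb, and for Lta Mxra8 and Hint1, with differences between 0.03 and 0.08. With 7 libraries among 17021 genes, such neighbours are a description of the values.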

How the data were processed

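ATAC-seq was performed on 7 libraries of sorted CD4+ T cells. Reads had been mapped by the authors to GRCm38 (Bowtie2 2.3.2 and MACS2 2.1.1 in the submitters' processing notes), merged summit regions over the replicates, counted transposase insertions and normalized them with voom of limma 3.38.3. The deposited values are log2 normalized insertions per kilobase. They also appear quantile-normalized, and insertion counts were rebuilt from the ranks of tied values. Deposited starts count from 0 and are given 1-based here. Regions were annotated with GENCODE release M21.

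All 113820 regions were fitted in R 4.3.3 with limma 3.58.1 (lmFit with 1 mean per population, eBayes with a variance trend, Benjamini-Hochberg within a comparison), with no pseudocount and no filter. Locus sums added the antilogged density times length over all regions of a gene and were fitted on the log2 scale over 17021 protein-coding genes. Tables and plots used Python 3.11.15, numpy 2.4.6, pandas 2.3.3 and matplotlib 3.10.9. Named were all 9 genes, every called region, the start region and the most open region of each gene, the 2 regions with the largest fold change per comparison and direction, listed genes with a called locus, and the 2 genes most like each member. The genes, lists and tests were chosen with earlier results of these data known. Alternatives were other scalings, a replicate block, GC correction, spread class, array weights, rebuilt counts, other thresholds and flanks, filters, and each library left out. Intervals cover spread between libraries only.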

Additional observations from a re-analysis of the deposited data

How the results depend on the processing

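With the replicate number as a block, 0 of the 57 regions and 0 of the 9 loci were called in any comparison, also with GC correction for the regions, as were 0 receptors and 0 other cytokines. Correlations of the deviations of same-numbered libraries from their population means were between -0.542 and 0.057. In a population of 2 libraries the deviations mirror each other, so these values cannot decide whether the numbers pair the libraries. The block also took up lung IL-4+ replicate 3, the one library with that number. The 4 regions higher in lung IL-4+ than in LN cells were 3 or 4 without 1 library, 2 by voom on rebuilt counts, 0 without a variance trend and 0 in gene bodies alone, none of which any called region overlaps, and 8 with the spread class as a covariate. The 0 lower regions became 2 with 25 kb flanks and between 0 and 1 without 1 library. Between the lung populations, 0 lower regions became 3 with array weights and between 0 and 1 without 1 library. The 3 regions higher in lung IFNγ+ than in LN cells became 0 in gene bodies, 5 with 25 kb flanks, where 2 were lower, and between 0 and 5 without 1 library (0 without either lung IFNγ+ library, 1 without LN replicate 1 and 5 without LN replicate 2).

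The 2 loci higher in lung IL-4+ than in LN cells and the 1 lower became 0 and 0 with those 2 populations alone or in gene bodies, 1 and 0 with array weights, and between 0 and 3 and 0 and 0 without 1 library. The 1 lower was 0 after median centring, quantile normalization or with 25 kb flanks. With the spread class as a covariate 5 loci were higher. Calls also rose in the receptor, neighbour and other cytokine lists with the spread class and with array weights. The share of all regions or genes called in those fits is not given here, so their counts at the cytokines have no background to be read against. Between the lung populations, 0 higher and 0 lower became 7 and 2 with array weights, a fit that stopped before it converged, and 1 higher with the spread class. For lung IFNγ+ over LN cells, 0 higher became 1 without a variance trend, with 25 kb flanks or with regions given only to the nearest start, 3 with the spread class, where 1 was lower, and between 0 and 1 without 1 library. Over the 3 comparisons, the 1 receptor call became 0 with 2 populations alone, 3 by quantile normalization or nearest starts, 4 in gene bodies, 10 with array weights, 17 with the spread class and between 0 and 4 without 1 library. The 0 neighbour calls became 7 with array weights or the spread class and between 0 and 2 without 1 library. The 3 calls of other cytokines became 1 without a variance trend, 9 with array weights, 10 with the spread class and between 0 and 7 without 1 library.

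Accessible regions in LN, lung IL-4+ and lung IFNγ+ cells were 11, 16 and 15 at a minimum density of 10, 34, 44 and 42 at 3, 7, 9 and 8 in gene bodies and 41, 51 and 49 with 25 kb flanks. The sign turned only at loci whose difference was not called. For lung IL-4+ over LN cells it turned at Il2 (-0.16 with array weights, -0.26 in the gene body, between -0.10 and 0.23 without 1 library), Tnf (-0.069 with the block, -0.042 with the spread class, between -0.23 and 0.31 without 1 library) and Lta (-0.074 with the block, -0.53 in the gene body, -0.28 with nearest starts, -0.042 with the spread class, between -0.25 and 0.34 without 1 library). For lung IFNγ+ over LN cells it turned at Il21 (0.08 with 25 kb flanks) and Il9 (-0.13 with the spread class, between -0.18 and 0.29 without 1 library), and between the lung populations at Il10 (-0.083 with the spread class) and Lta (-0.042 in the gene body). Where leaving out a library left 1 in a population, that library was assumed to vary like the others. The cause of these changes was not tested. A cytokine region had as few as 5 rebuilt insertions in a library, and the part of depth in the calls was not tested.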

Other observations

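The 10 kb flanks left out elements farther from these genes. From there to 100 kb lay 181 further regions, and those named here were chosen after their values were seen. By the same test, 3 of the 181 were higher and 4 lower in lung IL-4+ than in LN cells, against 1.05% and 0.695% of all regions, and 3 were higher and 3 lower in lung IFNγ+ than in LN cells, against 2.17% and 0.862%. At Il21, the T follicular helper cytokine, the region 35.9 kb upstream (chr3:37268271-37268748) had log2 values of 4.42 and 4.59 in LN cells, 2.63, 1.49 and 2.12 in lung IL-4+ cells and 2.79 and 3.04 in lung IFNγ+ cells. LN libraries were above all lung libraries, and it was lower in lung IL-4+ (-2.42, limma adjusted p = 0.00719) and lung IFNγ+ cells (-1.59, adjusted p = 0.0414). The region 27.2 kb upstream of Il21 was also lower in lung IL-4+ than in LN cells (-1.60, adjusted p = 0.0277), while 1 at 25.2 kb was higher in lung IFNγ+ than in LN cells (2.37, adjusted p = 0.00336).

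Elements lower in the lung also lay beyond the flank of Il3 and Il9. The region 10.8 kb upstream of Il3 (chr11:54277836-54278310) was lower in lung IL-4+ (-2.93, adjusted p = 0.0301) and in lung IFNγ+ cells (-3.08, adjusted p = 0.0289) than in LN cells, whereas the element 4.4 kb upstream was higher in both. The region 13.3 kb downstream of Il9, within Slc25a48, was lower in lung IL-4+ (-2.20, adjusted p = 0.0135) and lung IFNγ+ cells (-2.46, adjusted p = 0.00927). Regions 19.6 and 29.2 kb upstream of Il10 were higher in lung IL-4+ than in LN cells (1.61, adjusted p = 0.00812, and 1.62, adjusted p = 0.0196), and 1 that lay 29.6 kb downstream was higher in lung IFNγ+ than in LN cells (2.10, adjusted p = 0.00581). The region 40.9 kb downstream of Csf2, within the noncoding gene 4933405E24Rik, was higher in lung IL-4+ (2.08, adjusted p = 0.0389) and lung IFNγ+ cells (2.84, adjusted p = 0.0126).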
